A study of Mus musculus with 3 samples.

Results

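The AP-1 genes described here are Jun, Junb and Jund (the Jun family), Fos, Fosb, Fosl1 and Fosl2 (the Fos family), Batf and Batf3, and Atf3. They were taken by symbol, and all 10 were found among the 55536 annotated genes of the larger gene table. AP-1 is a dimer of basic leucine zipper (bZIP) proteins that binds DNA through paired basic regions. Jun proteins can pair with each other or with Fos proteins, whereas Fos and Batf proteins need a partner from another family, most often a Jun protein. In T cells AP-1 is induced by signals from the antigen receptor and CD28, Jun and Fos dimers bind composite sites together with NFAT, and Batf with a Jun partner binds composite sites together with IRF4 or IRF8.

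Polyadenylated RNA was sequenced from primary regulatory T cells (CD4 T cells that depend on Foxp3 and restrain immune responses, called Treg cells) labelled as activated, of a male mouse aged 9 weeks. The labels describe 3 technical libraries of 1 biosample from 1 donor, sheared for sequencing, with no genotype, allele or agent named and no statement of how the cells were activated or sorted. There was 1 group and no resting or untreated control, so the results are levels, differences between genes and the spread between libraries. Every SD and p-value below measures technical spread only.

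The larger gene tables summed to 31445344, 32612609 and 37259281 expected counts in libraries 1, 2 and 3. All 8 T cell markers examined were detected, here meaning a level of at least 1 TPM (a length-corrected share of all transcripts) in every library, and Foxp3 was the lowest of them at 135 ± 2.65 TPM (SD, n = 3). Markers of other cells were lower. Summed TPM was 9.73 to 17.0 for 4 B cell markers, 54.1 to 57.8 for 7 macrophage and monocyte markers and 3.76 to 4.39 for 6 dendritic cell markers. The 4 granulocyte markers summed to 15.4 TPM in library 1, 0.21 in library 2 and 1.64 in library 3. No marker of these lists was at 0 in all 3 libraries. In RNA from a bulk sample, fewer cells of a type and less RNA per cell cannot be told apart.

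The transcripts of Jund, Junb and Batf were abundant, those of Jun and Fos intermediate, and those of Fosl2, Fosb, Batf3, Atf3 and Fosl1 scarce. Detection was reached by 5 of the 10 genes, against 47.3% of protein-coding genes. Above 100 TPM stood 3 genes, Jund, Junb and Batf.

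Jund, the Jun family gene whose product is known for steady expression in many resting tissues, was the highest by TPM. In the smaller gene table, described below, it stood under both Junb and Batf per base of transcript. Its TPM was 751 in library 1, 735 in library 2 and 737 in library 3 (741 ± 8.41, SD, n = 3), from 23657, 24646 and 27877 expected counts. It ranked 144th by mean TPM among 22028 protein-coding genes. The gene lies at chr8:70698949-70700616 on the plus strand (mm10, GENCODE M21) and has a single annotated transcript of 1 exon. Junb, which encodes a Jun protein that is induced on stimulation and partners Batf in T cells, followed with 348, 318 and 334 TPM (334 ± 14.9) from 11899, 11564 and 13710.4 expected counts. It ranked 411th and lies at chr8:84974484-84978718 on the minus strand. Jun, the founding member of the family and a substrate of the JNK kinases, reached 36.4, 31.3 and 31.8 TPM (33.1 ± 2.81), from 2223, 2032 and 2330 expected counts. It ranked 4836th and lies at chr4:95049034-95052222 on the minus strand. By TPM, library 1 was the highest for all 3 Jun family genes, and no library's level of any of these genes overlapped the level of another. With counts scaled to equal depth, Jund was highest in library 2 (25400, 25530 and 25268 in libraries 1, 2 and 3).

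The 150 bases before the RefSeq start sites of Junb and Jun are shown because the levels of these related genes stood far apart. They are from the GRCm38.p6 assembly, at chr8:84978749-84978898 (minus strand) for Junb and chr4:95052223-95052372 (minus strand) for Jun. Capitals mark TGACG, the left end of the cyclic AMP response element, and CCAAT, the box bound by NF-Y.
Junb: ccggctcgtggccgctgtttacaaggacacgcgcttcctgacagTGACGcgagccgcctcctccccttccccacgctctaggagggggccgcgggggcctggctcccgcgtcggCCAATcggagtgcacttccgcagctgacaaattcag
Jun: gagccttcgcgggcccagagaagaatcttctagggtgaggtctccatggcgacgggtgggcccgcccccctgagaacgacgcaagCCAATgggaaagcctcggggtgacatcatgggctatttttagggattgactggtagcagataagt

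Of the Fos family only Fos was detected. Fos, the classic immediate early gene and the usual partner of Jun, had 17.3, 18.3 and 16.2 TPM (17.3 ± 1.03) from 620, 667 and 751 expected counts. It ranked 6727th among protein-coding genes, and the 3 libraries lay close together. The gene lies at chr12:85473890-85477273 on the plus strand. Fosl2, which encodes the Fos-related protein Fra-2, had 1.71, 0.82 and 1.65 TPM (1.39 ± 0.497) from 165, 107 and 218 expected counts. Library 2 alone fell under the detection level for Fosl2 (chr5:32135801-32157842, plus strand). Fosb, a close relative of Fos, had 0.42, 0.67 and 1.19 TPM (0.76 ± 0.393) from 29, 49 and 95 expected counts. Library 3 alone exceeded the detection level for Fosb (chr7:19302696-19310051, minus strand). Fosl1, which encodes Fra-1, had 0.03 TPM in library 1 from 1.05 expected counts and 0 counts in libraries 2 and 3, where 3 counts would have given 0.169 and 0.150 TPM. Fosl1 lies at chr19:5447547-5455946 on the plus strand. Its level was not measurable from these counts, and its overlap with another gene is described below.

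The promoter of Fos, shown as the best-studied promoter of an immediate early gene, lies at chr12:85473740-85473889 on the plus strand, and that of Batf, shown because the gene lies on the same chromosome and stood far higher, at chr12:85686570-85686719 on the plus strand. Capitals mark TGACG and, in Fos, the TATA box letters TATAAA.
Fos: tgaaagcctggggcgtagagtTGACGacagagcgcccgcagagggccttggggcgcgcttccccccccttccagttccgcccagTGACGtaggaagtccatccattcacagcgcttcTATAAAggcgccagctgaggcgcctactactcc
Batf: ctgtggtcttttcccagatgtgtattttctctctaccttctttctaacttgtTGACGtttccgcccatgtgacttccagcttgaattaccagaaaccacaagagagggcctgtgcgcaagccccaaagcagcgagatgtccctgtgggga

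Batf was the only abundant gene outside the Jun family. It encodes a small bZIP protein without a transactivation domain that acts with Jun proteins and IRF4 in effector T cells, and it is known to be expressed in tissue Treg cells. Its TPM was 225, 237 and 229.6 (231 ± 5.73) from 3797, 4222 and 4665 expected counts, which ranked it 661st. The gene lies at chr12:85686669-85709087 on the plus strand. Batf3, known for its role in conventional dendritic cells that cross-present antigen, had 0.47, 0 and 0.34 TPM from 7, 0 and 6 counts, and 3 counts in library 2 would have given 0.210 TPM. Xcr1 and Clec9a, markers of those dendritic cells, averaged 0.413 ± 0.162 and 0.37 ± 0.433 TPM, and their part in the Batf3 counts was not tested. Atf3, a stress-induced gene whose product can repress transcription, had 0.19, 0.19 and 0 TPM from 7, 7 and 0 counts, and 3 counts in library 3 would have given 0.0905 TPM. Batf3 (chr1:191097847-191108945, plus strand) and Atf3 (chr1:191170296-191218039, minus strand) were each missing from 1 library, and neither can be placed above the other.

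**Figure D1:**
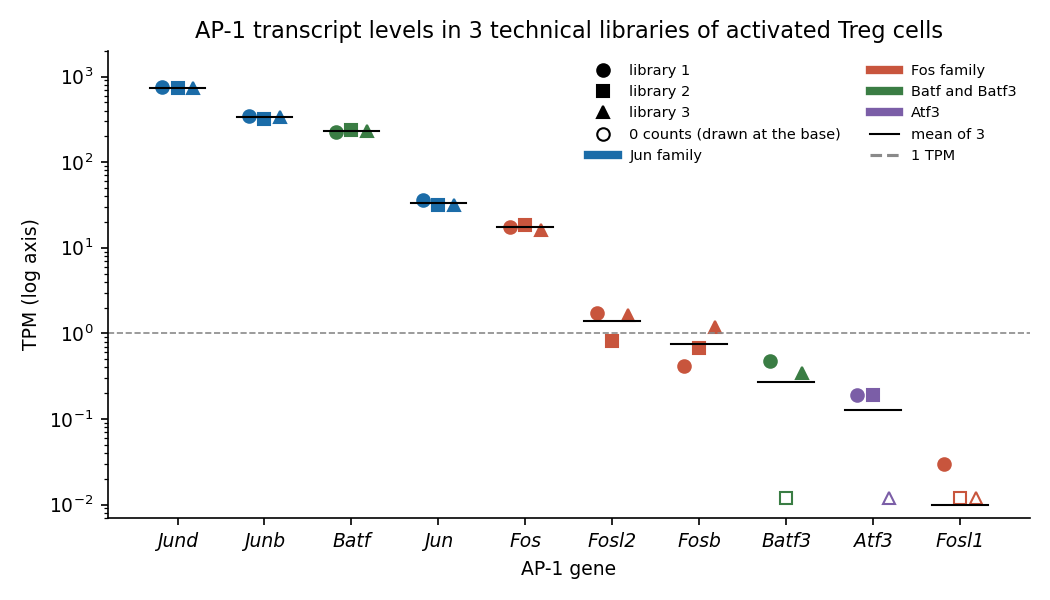
TPM (log axis) of the 10 AP-1 genes in libraries 1, 2 and 3, coloured by family, with the mean as a bar and libraries with 0 counts as open symbols at the base. Jund, Junb and Batf stand above 100 TPM, Jun and Fos between 16.2 and 36.4, and the other genes near or below the dashed line at 1 TPM.

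Setting neighbours in this order against each other within each library, the upper part of the order was separated beyond the spread and the lower part was not. A log2 ratio of TPM (pseudocount 0.1) was called beyond the spread when all 3 values had 1 sign and the mean was larger than 2 SD. With 3 libraries, an exact two-sided sign-flip test gives no p-value below 0.25. Jund exceeded Junb by 1.15 ± 0.05, Junb exceeded Batf by 0.53 ± 0.10 and Batf exceeded Jun by 2.80 ± 0.15 (log2 ratio, SD, n = 3). Jun exceeded Fos by 0.94 ± 0.15 and Fos exceeded Fosl2 by 3.60 ± 0.62. These 5 of 9 steps passed. The log2 ratios of Fosl2 to Fosb (0.83 ± 0.84), Fosb to Batf3 (1.45 ± 1.54), Batf3 to Atf3 (0.53 ± 1.88) and Atf3 to Fosl1 (0.90 ± 0.80) did not. In the smaller gene table per length 3 of 9 steps passed. There the order of Jund and Junb turned round, the log2 ratio of Jun to Fos was 0.31 ± 0.17 and lost its call, that of Batf to Jun was 1.74 ± 0.10 and that of Fos to Fosl2 was 5.42 ± 0.82. Without length correction (counts per library total), Batf exceeded Jun by 0.94 ± 0.15, Junb exceeded Batf by 1.55 ± 0.10, Jun exceeded Fos by 1.69 ± 0.13 and Fos exceeded Fosl2 by 2.09 ± 0.45.

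Summed over members, the Jun family far exceeded the other families. Its 3 genes gave 1135, 1085 and 1104 TPM (1108 ± 25.5), Batf and Batf3 gave 226, 237 and 230.0 (231 ± 5.49), and the 4 Fos genes gave 19.4, 19.8 and 19.1 (19.4 ± 0.355). The log2 ratio of the Jun sum to the Fos sum was 5.83 ± 0.05, a 57.1-fold difference. The Jun sum was 4.80-fold above the Batf sum (log2 ratio 2.26 ± 0.07), and the Batf sum was 11.9-fold above the Fos sum (log2 ratio 3.57 ± 0.03). All 3 ratios exceeded the spread. In the smaller table per length they kept their direction and were smaller, with log2 ratios of 3.18 ± 0.12 for Jun to Fos, 1.24 ± 0.04 for Jun to Batf and 1.94 ± 0.11 for Batf to Fos. Without length correction, Jun to Batf was 3.24 ± 0.07 and Batf to Fos 2.24 ± 0.11. Jund gave 66.9% ± 0.826 of the Jun sum, Junb 30.1% ± 0.682 and Jun itself 2.99% ± 0.186 by TPM. In the smaller table per length these shares were 28.6% ± 0.450 for Jund, 58.7% ± 0.121 for Junb and 12.7% ± 0.567 for Jun. Fos gave 88.8% ± 3.68 of the Fos sum, Fosl2 7.20% ± 2.65 and Fosb 3.93% ± 2.10. In the smaller table these shares were 92.7% ± 2.72, 2.18% ± 1.06 and 1.94% ± 1.48. Fosl1 gave 3.22% ± 1.62 there, from 5, 9 and 8 counts, and so stood above Fosl2 and Fosb, against 0.0515% ± 0.0891 by TPM. Batf gave 99.9% ± 0.107 of the Batf sum. These are transcript levels, and protein was not measured.

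Among 43 matched bZIP genes, the AP-1 members took the top 3 places by TPM in the larger table and 5 of the last 12. The list held the 10 members and 34 others, of which Ddit3 was left out because 2 annotated genes carry that name. Jund, Junb and Batf ranked 1st, 2nd and 3rd. In the smaller table per length the order of these 3 genes was Junb, Batf and Jund, and the other bZIP genes were not ranked there. Crebzf, which encodes a partner of host cell factor, came next with 128 ± 2.32 TPM, before Xbp1, the unfolded protein response factor (116 ± 9.50), and Atf4, the factor of the integrated stress response (78.7 ± 3.19). Crebzf was the nearest other bZIP gene to Batf, with a log2 ratio to it of -0.85 ± 0.06. Jun stood at rank 17 beside Cebpg (34.0 ± 2.55 TPM), from which it differed by less than the spread (log2 ratio of Cebpg to Jun 0.04 ± 0.20). Fos stood at rank 26 beside Tef (18.7 ± 0.546 TPM), also within the spread by the same rule (log2 ratio of Tef to Fos 0.12 ± 0.09). Fosl2, Fosb, Batf3, Atf3 and Fosl1 held ranks 32, 34, 40, 41 and 43, and Creb5 was the lowest matched gene that is no member, at 0.02 TPM from 1, 0 and 1 counts. Of the other bZIP genes 26 of 33 were detected, and the median over the 33 was 27.0 TPM.

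**Figure D2:**
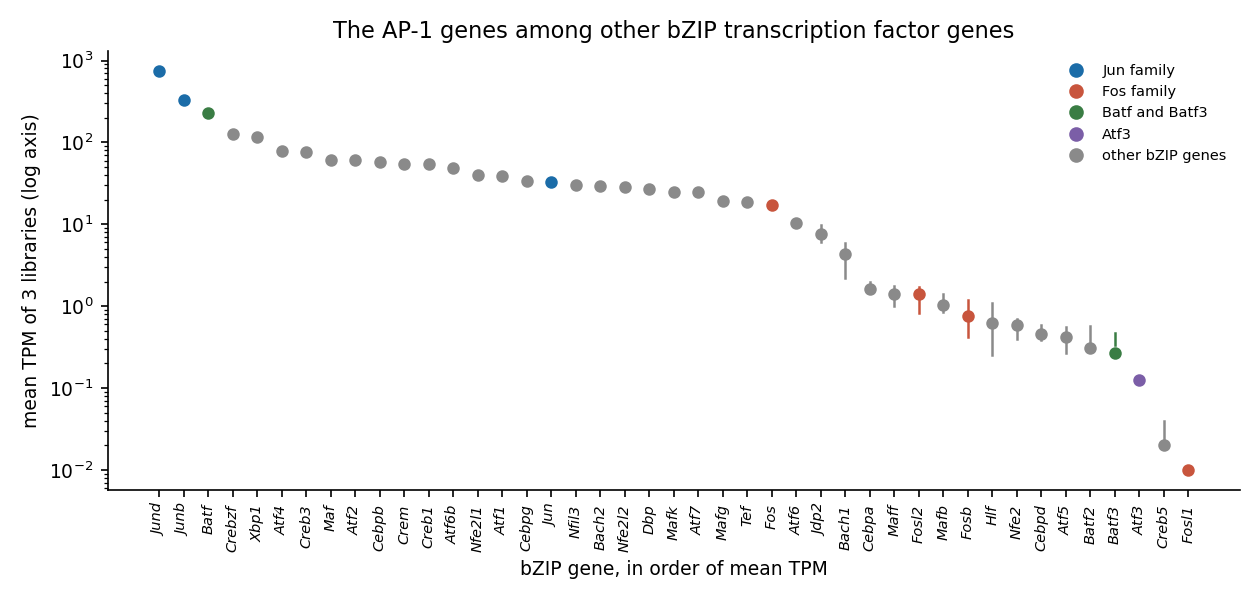
Mean TPM (log axis) of bZIP genes with any count, in order, with a line from the lowest to the highest library above 0. Jund, Junb and Batf lead the list, Jun and Fos lie in its middle, and 5 members lie among its lowest genes.

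The single-exon genes Jun and Jund had 1 annotated transcript each, and Junb-201 carried 99.7% of Junb. Batf-201, the coding transcript of 3 exons, carried 90.5%, 89.5% and 91.5% of Batf TPM (90.5% ± 0.983), and the retained-intron transcript Batf-202 the remaining 9.47% ± 0.983. For Fos, the coding transcript Fos-201 carried 83.7%, 77.5% and 94.3% (85.2% ± 8.51), and Fos-203, annotated as a processed transcript without a coding frame, 16.3%, 22.5% and 5.68%. The share of Fos-201 was thus highest in library 3 and lowest in library 2. As a share of expected counts, which does not weight short transcripts up, Fos-201 held 93.9% ± 3.72 and Batf-201 94.7% ± 0.575.

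The scarce Fos genes had less even transcript shares. Fosl2-201 carried 58.7%, 93.9% and 73.3% of Fosl2 TPM, and the retained-intron transcripts Fosl2-202 and Fosl2-203 averaged 19.4% and 5.23%. In Fosb, the retained-intron transcript Fosb-204 carried 39.5%, 38.8% and 44.5%, and the coding transcript Fosb-207 carried 60.5%, 25.4% and 37.8%. The coding transcript Fosb-201 was present in library 2 alone, with 32.8%. These shares rest on at most 95 expected counts per library for Fosb. The Batf3 counts went to Batf3-201 in library 3 and were split between Batf3-201 (54.2%) and the retained-intron Batf3-202 (45.8%) in library 1. The Atf3 counts went to Atf3-203 in library 1 and to Atf3-201 (89.5%) and Atf3-202 (10.5%) in library 2, from 7 counts each. The count of Fosl1 went to Fosl1-201.

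**Figure D3:**
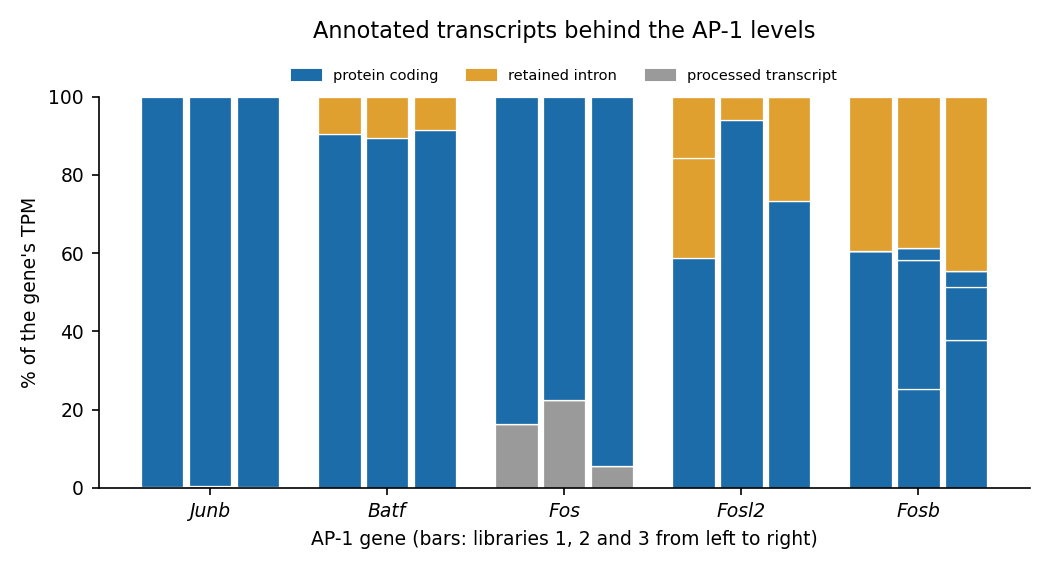
Share of each gene's TPM (%) by annotated transcript class in libraries 1, 2 and 3, with white lines between transcripts of a class. Junb is nearly all coding, Batf carries 9.47% of retained-intron transcript, and the classes vary more between libraries in Fos and Fosl2.

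Whether the AP-1 read counts differed between technical libraries was examined with a chi-square test of equal shares, adjusted by Benjamini-Hochberg over 15945 genes with a summed count of at least 30. Of the 10 members 7 had enough counts, and Batf3, Atf3 and Fosl1 did not. The test called 5 of these 7, against 65.8% of all genes tested, so a call was common. Jund (adjusted p = 0.550) and Fos (adjusted p = 0.822), by the chi-square test on counts, did not vary beyond counting error. For these genes the variation left after counting error was 0%, where genes of like count had medians of 2.69% and 8.31%. Junb (adjusted p = 1.71e-05, chi-square) kept a coefficient of variation of 3.10% beyond counting error and Batf (adjusted p = 0.0130) 3.15%, against medians of 3.30% and 4.61% in genes of like count. Jun was somewhat higher, with 6.98% (adjusted p = 4.01e-05, chi-square) against 5.51%, and its depth-scaled count was highest in library 1. The marker sums of B cells, macrophages and monocytes, dendritic cells and granulocytes were each highest in library 1 too. Their part in the spread of Jun was not tested.

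The largest spread was in the scarce genes. Fosl2 kept 26.9% beyond counting error (adjusted p = 1.18e-05, chi-square) against a median of 16.5% in genes of like count, and library 2 lay 31.5% below the mean as its depth-scaled count was 111 against 177 and 198 in libraries 1 and 3. Fosb kept 47.9% (adjusted p = 4.03e-06, chi-square) against 24.3%, with depth-scaled counts of 31.1, 50.8 and 86.1. The authors' deposited posterior interval for Fosb TPM, whose level the sources used here do not give, ran from 0.340 to 0.727 in library 1 and from 1.00 to 1.69 in library 3, without overlap. This was not particular to Fosb, since the intervals of Junb, Jun and Fosl2 in libraries 1 and 2 did not overlap either. Those of Jund, Fos and Batf overlapped between all libraries. After division of the statistic by an overdispersion of 8.61 common to all genes, the test called 0 of the 7 members and 1.85% of genes. At an unadjusted p under 0.05 that divided test again gave 0 members, and it gave 10.3% of genes. With library sizes scaled by edgeR or by DESeq2 factors the chi-square test called 5 of 7 members, against 65.6% and 65.7% of genes. Without library 1 it called 3 members and 48.6% of genes. Without library 2 it called 2 (41.1% of genes), and without library 3 it called 4 (45.0% of genes).

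**Figure D4:**
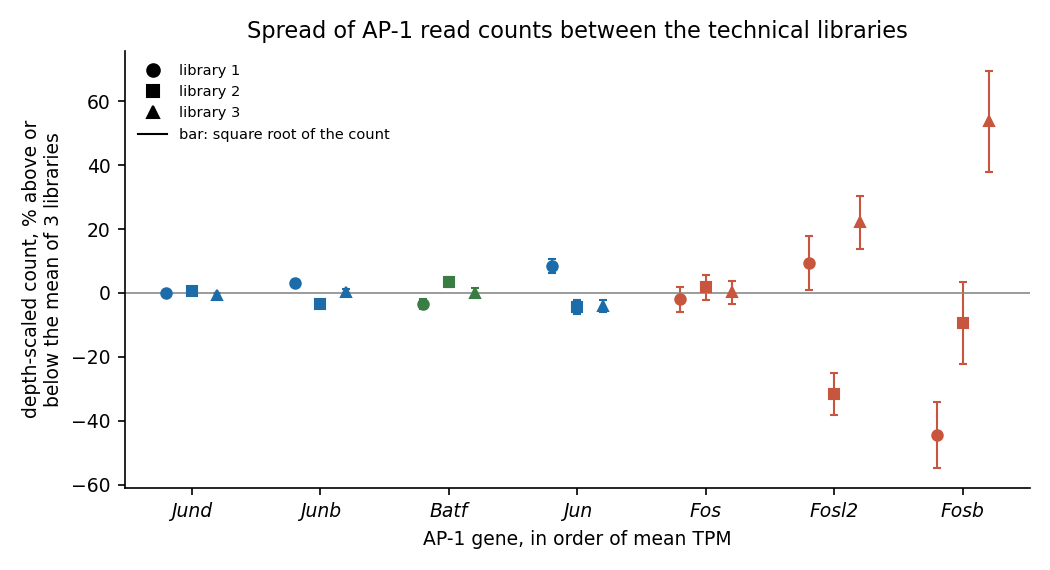
Depth-scaled expected count of the 7 tested AP-1 genes in libraries 1, 2 and 3, as % above or below the mean of the libraries, with bars of the square root of the count. Jund and Fos lie within their bars, whereas Fosl2 in library 2 and Fosb in libraries 1 and 3 lie well outside them.

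Reads of several members may be mixed with those of an overlapping gene, since the sources used here do not give the use of strand in the counting. Gm11175, annotated as antisense, spans 919 bases inside Jund and covers 877 of the 1668 bases of Jund-201 (52.6%). It was given 110, 104 and 136 TPM (117 ± 17.0) from 1059, 1061 and 1555 expected counts, which is 4.29%, 4.13% and 5.28% of the counts of both genes. The authors' posterior SD of the count was 108, 109 and 121 for Jund and identical for Gm11175, whereas it was at most 1.85 in every other member. Jund and Gm11175 therefore share reads in the estimate although they lie on opposite strands, and the smaller table gave Gm11175 0 counts in every library. The SD was also identical within 2 other opposite-strand pairs, which share reads too. It was 1.13, 1.85 and 0.79 for Jun and Junos, and 0.31, 0.16 and 0.16 for Fosl1 and Ccdc85b. How many of the shared reads belong to each gene was not tested. In Fosl1, 1163 of the 1864 bases of Fosl1-201 (62.4%) lie under Ccdc85b on the opposite strand, which had 720, 796 and 965 expected counts (8.36 ± 0.464 TPM). The smaller table gave Fosl1 5, 9 and 8 counts where the larger gave 1.05, 0 and 0, and reads of these genes cannot be told apart. The antisense gene Junos covers 232 of 3189 bases of Jun (7.28%) and had 0.387 ± 0.272 TPM. Prdx2, a peroxiredoxin gene, overlaps the gene span of Junb by 351 bases but no base of Junb-201. Gm24748 lies in Atf3 with no base of Atf3-203 and had 0 counts.

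Members also lie near each other in the genome. Fos and Batf are 209395 bases apart on chromosome 12, with Jdp2, which encodes a bZIP repressor that pairs with Jun proteins, between them. Jdp2 had 9.80, 6.88 and 6.02 TPM (7.57 ± 1.98), below both Fos and Batf in every library. Batf3 and Atf3 are 61350 bases apart on chromosome 1, with Fam71a between them at 0 counts in every library.

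The smaller gene table, made on GENCODE M4, was used as an alternative measure. It gave Jund 921, 934 and 935 counts and Junb 2068, 2044 and 2096, so that per base of transcript Junb exceeded Jund and the log2 ratio of Jund to Junb was -1.04 ± 0.02. Batf also exceeded Jund there, with a log2 ratio of Batf to Jund of 0.57 ± 0.02. The larger table held 14.2 to 16.7 expected counts per base of Jund and the smaller 0.552 to 0.561. Counts in the smaller table levelled off in abundant genes, with a median of 0.860 per base over the 238 protein-coding genes that had 10 to 100 expected counts per base in the larger. Batf had 753, 765 and 750 counts there, Jun 810, 740 and 824, and Fos 355, 389 and 405. The chi-square test on that table called 1 of 7 members, Fosb (adjusted p = 0.00282), against 33.4% of genes. Fosb had 6, 11 and 28 counts there, and library 3 was again the highest.

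**Figure D5:**
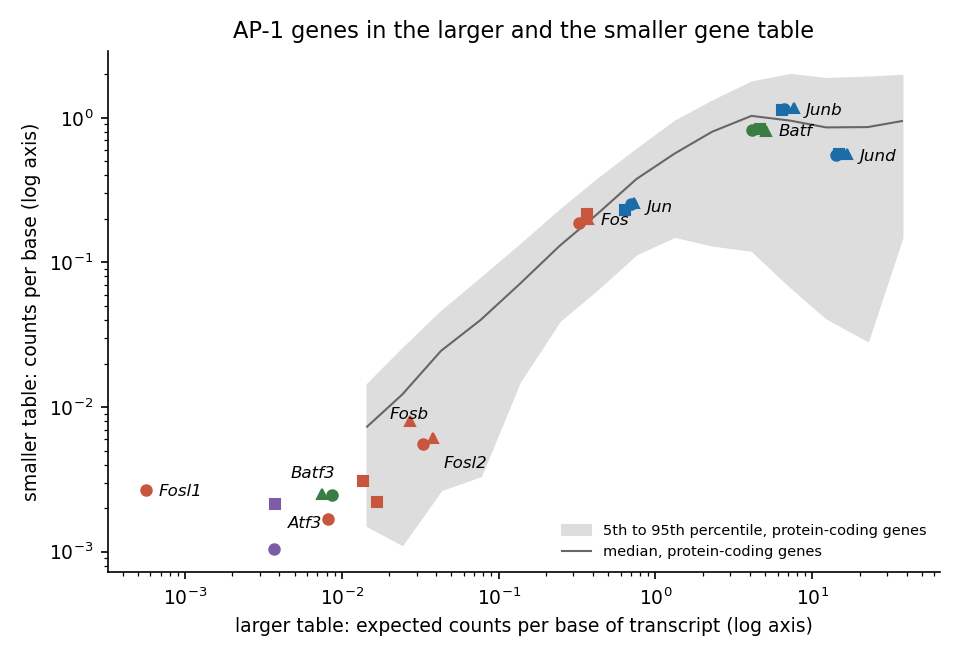
Counts per base of transcript in the smaller table against expected counts per base in the larger (log axes), with the median and the 5th to 95th percentile range of protein-coding genes (mean of 3 libraries, at least 30 expected counts) and the AP-1 genes in libraries 1 (circles), 2 (squares) and 3 (triangles). The grey line flattens at the right, where Jund lies below Junb.

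RefSeq start sites were available for 9 of the 10 members, and 250 bases before each were searched on both strands. The letters TGACG, which also form the left end of the full cyclic AMP response element TGACGTCA, were in 5 of the 9 windows, those of Fos, Fosb, Junb, Batf and Atf3, and in 17.8% of 32851 windows of the same length. The Fos window held them at 2 places, 129 to 125 and 66 to 62 bases before the start. TATAAA was in the Fos window alone, 33 to 28 bases before the start, and in 12.4% of all windows. CCAAT was in those of Jun and Junb (33.8% of all windows), and GGGCGG, the GC box, in 7 of 9 (32.7%). The full element TGACGTCA and the TPA response element (TRE, an AP-1 site, searched as TGACTCA or TGAGTCA) were in 0 of 9 windows. So was the CArG box, the site of serum response factor. They were in 1.55%, 4.46% and 1.47% of all windows, in that order. Variants of these letters were not searched. The Jun window shown above holds tgacatca, which differs from TGACGTCA in a single letter and was not counted. More CpG dinucleotides than the median of 6 were found in 8 of 9 windows, Jund being the exception. The RefSeq start of Jund lies 1210 bases upstream of the GENCODE start, so its window is not the sequence next to the transcript counted here. Those of Atf3, Fosl2, Batf3, Batf and Fosb lie 34706, 671, 567, 51 and 6 bases downstream of the most upstream GENCODE start of their genes, and that of Junb 30 bases upstream. A match of letters, or the lack of one, describes the window only, and no binding was measured. Elements more than 250 bases before the start, of Fos or any other member, were not searched.

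AU-rich elements in the 3′ untranslated region (UTR), built on the letters ATTTA, are known to shorten the life of Fos and Jun transcripts, and the proteins of the Zfp36 family bind them. In the leading coding transcripts of GENCODE M21, Fos-201 held 4 ATTTA in its 3′ UTR (4.91 per kb), Junb-201 held 2 (4.12 per kb), Jun-201 held 4 (3.24 per kb) and Jund-201 held 1 (1.88 per kb). The median over 30690 3′ UTRs of at least 300 bases was 1.53 per kb, and Fos stood above 93.3%, Junb above 89.2%, Jun above 81.6% and Jund above 57.8% of them. Atf3 held 3 (2.53 per kb), Fosl2 held 8 in its long UTR (1.72 per kb), Fosl1 held 1 (1.57 per kb), Fosb held 1 (0.434 per kb), and Batf and Batf3 held 0. The longer form TATTTAT was in the 3′ UTR of 7 of 10 members, and in 30.3% of all those of at least 300 bases. Fos held 2 copies of it, Jun and Jund 1 each, and Junb, Batf and Batf3 held 0. A stretch of 30 bases around the densest part is shown for the genes with the highest density, with ATTTA in capitals.
Fos UTR: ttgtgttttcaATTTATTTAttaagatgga
Junb UTR: aatatatttgtgtATTTAacagggagggga
Jun UTR: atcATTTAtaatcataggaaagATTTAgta
The ATTTA motifs of Fos shown here overlap by 1 base, and Junb and Batf, with high levels, differ in the density of ATTTA. RNA stability was not measured.

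Genes that act with AP-1 were also present. All 5 composite site partners were detected, against 47.3% of protein-coding genes, namely Nfatc1 (175 ± 8.49 TPM), Nfatc3 (121 ± 2.30), Nfatc2 (63.0 ± 2.08), Irf8 (56.0 ± 3.09) and Irf4 (28.3 ± 1.48). Batf transcripts thus exceeded those of both IRF partners in every library. Of 17 upstream kinases and factors 16 were detected (median of all 17, 49.7 TPM), with the ribosomal S6 kinase gene Rps6ka1 (344 ± 11.8) and the MEK2 gene Map2k2 (159 ± 6.95) among the highest, and the lowest was the JNK3 gene Mapk10 (0.187 ± 0.315). All 11 genes of AP-1 turnover and restraint were detected (median 82.5 TPM), led by the MAP kinase phosphatase gene Dusp2 (219 ± 9.84) and the RNA decay genes Zfp36 (162 ± 7.96) and Zfp36l2 (150.3 ± 4.29), with Dusp6 lowest (18.2 ± 1.01).

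Most other immediate early genes were detected beside Fos. Of 14 listed, 13 were detected (median of all 14, 83.3 TPM), led by Ier2 (161 ± 5.13), the antiproliferative gene Btg2 (131 ± 3.55) and the zinc finger gene Klf6 (113 ± 5.71), and the lowest was Ier3 (0.513 ± 0.307). Among 10 genes known to be regulated by AP-1, 7 were detected, and the median over all 10 was 6.54 TPM, where all protein-coding genes had a median of 0.808. The highest were Il2ra, the interleukin 2 receptor alpha chain (317 ± 14.3), Cd69, an early activation antigen that is also on the immediate early list (96.4 ± 0.998), and Tnf, the inflammatory cytokine (24.8 ± 5.43). The undetected ones were Ccnd1, the cyclin D1 gene (0.29 ± 0.166), and, named after their values were seen, Il2 (0.673 ± 0.115) and Csf2 (0.363 ± 0.248), both cytokine genes. Which of these genes AP-1 controlled in these cells was not measured.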

How the data were processed

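RNA was measured in 3 technical libraries. Expected counts and TPM were deposited by the authors per gene and transcript on mm10 with GENCODE M21, and expected counts split shared reads and need not be whole. TPM is corrected for effective length, per the file headers. The authors also deposited a smaller gene table of whole-number counts on GENCODE M4 (8827129, 8758421 and 9555924 in libraries 1, 2 and 3). The sources used here do not give the aligner, quantification program or strand. Records matching no annotated gene held 0.125%, 0.182% and 0.155% of counts and stayed out of library sizes and tests.

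Expected counts were rounded for the chi-square test, which had 2 degrees of freedom, library totals as shares and a threshold of 0.05. With a single group, no quasi-likelihood test between groups was possible. edgeR 4.0.16 (R 4.3.3) gave TMM factors and DESeq2 1.42.0 gave size factors as alternatives. Python 3.11.15, scipy 1.17.1 and pandas 2.3.3 were used. The chi-square script was tested on counts simulated with counting error alone, a check that does not cover the overdispersion of these data. Reads carried no molecular identifiers, so the floor of 3 counts and the chi-square cover counting error only. Promoter windows came from RefSeq (GRCm38.p6), and 3′ UTRs from GENCODE M21.

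Named were all members, the 3 highest and the lowest gene of each other list, all genes of lists of up to 6, the nearest bZIP gene of each detected member, overlapping or intervening genes, and transcripts from 5% of a member's TPM. An item that this rule would name is not reported here. Marker lists are given as sums, with single genes where a result touches them. Members and lists were chosen with earlier results of these data known. Alternatives changed thresholds, pseudocounts, length correction, transcript class, posterior mean TPM, table, scaling and libraries. Leaving out libraries for the detection and list counts, and family shares and the Batf to Jund ratio in the smaller table, were chosen after seeing the data.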

Additional observations from a re-analysis of the deposited data

How the results depend on the processing

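Of 262 values under alternative settings, 228 were classed as kept. A ratio was kept with the same sign and call, or with a changed sign where neither setting passed. A single level or transcript share was kept within the spread, and a count within a limited fold change. Thus 13300 genes called with no count filter, against 10487, was kept. So was the log2 ratio of Atf3 to Fosl1, at -2.51 in the smaller table per length against 0.90. The log2 ratio of Jund to Junb was reversed in the smaller table per length (-1.04), where 3 rather than 5 neighbouring steps passed and the ratio of Jun to Fos (0.31) lost its call. AP-1 genes varying between libraries numbered 5 of 7 on library totals, 0 after division by the shared overdispersion, 1 in the smaller table and 2 to 4 when a library was left out. Over all genes the count was 10487, then 295, 3845 and 6069 to 7265, or 65.8%, 1.85%, 33.4% and 41.1% to 48.6% of genes tested. Fewer libraries give the test fewer counts, and otherwise the cause was not tested. With no count filter Atf3 was also called (adjusted p = 0.0419, chi-square test), 6 of 10 members, against 41.7% of 31917 genes. That call rests on 7, 7 and 0 counts, too few for the chi-square test to be relied on. Counting coding transcripts alone lowered Fos to 14.6 and Batf to 209 TPM. Posterior mean TPM was 689 ± 5.49 for Jund, 311 ± 13.4 for Junb and 215 ± 5.75 for Batf, each lower than its TPM by more than the spread. It was higher for Fosl1 (0.277), Batf3 (0.607) and Atf3 (0.280). The TPM of Jund, Junb, Jun and Batf lay above the deposited posterior interval in every library. Leaving out mitochondrial genes raised Jund to 766 and Batf to 238 TPM. No paired analysis was possible because the labels give a single group of libraries. Batf3, Atf3 and Fosl1 had at most 7 expected counts in a library of the larger table, which limits what can be said of them. For Fosl1, depth and the overlap with Ccdc85b cannot be told apart as the limit.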
